A study of Mus musculus with 16 samples.

Results

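Peritoneal B1b cells were set against whole aortas of the same wild-type group of mice, using 8 of the 16 RNA-seq libraries of the series. The members were chosen by label alone: 3 libraries of B1b cells and 5 of aorta carry the genotype label wt. All 8 come from the ApoE-/- strain, which lacks apolipoprotein E and is prone to atherosclerosis, so both sides of the comparison share that deletion. The other 8 libraries, 3 of B1b cells and 5 of aorta, are labelled cre and come from mice that the series describes as lacking CD40 in B cells; they were used here only to see which calls returned. The labels used here name no age, sex or diet. Whether 1 library stands for 1 animal is not said in them, and p-values therefore rest on the variation among these libraries, which may be technical.

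B1b cells were sorted from peritoneal lavage fluid by a gate on high IgM together with low B220 and low CD5, pelleted and stored frozen, while aortas were snap frozen and lysed whole. Tissue, sorting and handling differ together between the groups and cannot be told apart. A whole aorta also holds many cell types, so in bulk RNA fewer cells of a type and less RNA per cell cannot be told apart.

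B1b cells are innate-like B lymphocytes of the body cavities. They arise early in life, renew themselves, respond to interleukin-5 and Toll-like receptor ligands, and secrete natural and induced IgM, which includes antibody against oxidised lipoproteins. The artery wall is built of contractile smooth muscle cells between elastic lamellae, an endothelium, and an outer coat of fibroblasts, fat and nerve. In ApoE-deficient mice it also gathers lipid-laden macrophages.

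With 1 transcript kept per gene, the B1b libraries held 7375700 to 9209717 counts and the aortas 1979824 to 7142089. Levels are given as CPM, the usual per-library scaling of counts, with library sizes adjusted by the trimmed mean of M-values. They depend on gene length, so they are compared between groups and not between genes. Log2 differences are B1b minus aorta throughout, and a gene is called when its adjusted p is under 0.05 (edgeR quasi-likelihood test, Benjamini-Hochberg over all genes tested). Pearson correlations of log2 CPM across genes, which are not independent replicates, were 0.979 to 0.987 between B1b libraries, 0.93 to 0.973 between aortas and 0.467 to 0.494 between a B1b library and an aorta.

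Of 14341 genes tested, 5081 (35.4%) were called higher in B1b cells and 5797 (40.4%) higher in aortas, together 10878 (75.9%). These shares are the background for the list counts below, unless another is given. The median log2 difference over all tested genes was -0.091. Against a minimum change of 2-fold (edgeR glmTreat), 2216 genes (15.5%) were higher in B1b cells and 4207 (29.3%) higher in aortas, together 44.8%. At a fitted difference of 16-fold or more the sides were further apart, with 287 called genes on the B1b side and 2430 on the aortic side. The 2430 aortic genes held 31.3% to 33.6% of the tested counts of each aorta and 0.257% to 0.298% of those of each B1b library. The 287 B1b genes held 7.59% to 7.6% of the counts in B1b libraries and 0.201% to 0.25% in aortas. There were 395 tested genes with no count in any B1b library and 13 with no count in any aorta. With every library thinned to 1979824 counts, at least 5 counts were found for 10657 to 11234 genes in B1b libraries and for 13013 to 13445 in aortas.

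**Figure D1:**
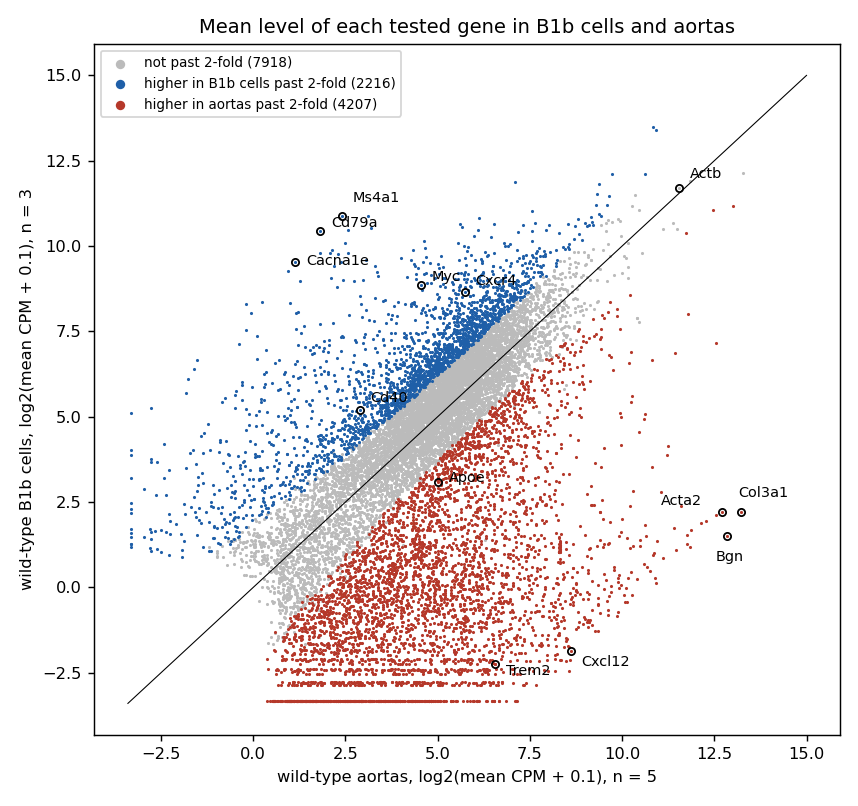
Mean CPM of each tested gene in wild-type aortas (n = 5, horizontal) and wild-type B1b cells (n = 3, vertical), both as log2 of the mean plus 0.1, with 2216 genes higher in B1b cells past 2-fold in blue and 4207 higher in aortas past 2-fold in red. The diagonal marks equal levels; Cd79a and Ms4a1 lie far above it, Bgn, Col3a1 and Acta2 far below it, and Actb lies near it.

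The genes behind the strain, the other genotype and the sort gate were read first. Apoe (chr7:19696244-19701310, GRCm38) stood at 9.56, 7.21 and 8.35 CPM in the B1b libraries and at 33, 26.9, 43.3, 30 and 27.5 CPM in the aortas. Its groups did not overlap, and the aortic level was higher (log2 difference -1.95, SE 0.21; edgeR adjusted p = 3.07e-06). The value covers a whole transcript and so does not check the deleted allele. Cd40 (chr2:165055614-165071654), the co-stimulatory receptor that the series deletes in B cells of the other genotype, stood at 39.3, 34.1 and 37.1 CPM in B1b libraries and at 11.9, 5.29, 6.92, 7.5 and 4.77 CPM in aortas. Every B1b library was above every aorta (log2 difference 2.31, SE 0.24; edgeR adjusted p = 1.84e-06). The kept Cd40 transcript is a noncoding RefSeq record of the gene.

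Ptprc, which encodes CD45 and its B220 form, was 1556 ± 74.8 CPM in B1b cells (SD, n = 3) and 158 ± 26.5 CPM in aortas (SD, n = 5), with no overlap (log2 difference 3.29). Cd5, gated as low, gave 2.96, 7.6 and 6.92 CPM in B1b libraries and 0.991 to 3.56 CPM in aortas, so B1b replicate 1 lay inside the aortic range. Its log2 difference of 1.44 passed here (edgeR adjusted p = 0.0137); in the cre libraries it was 1.39 with an adjusted p of 0.0613 by the same test. Without B1b replicate 2 the wild-type value was 1.202 (edgeR adjusted p = 0.0716), and without B1b replicate 3 it was 1.29 (edgeR adjusted p = 0.0542).

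Among lists higher in B1b cells, that of the B cell antigen receptor complex and its surface partners had the largest median. Of 19 tested genes of the B cell surface list, 17 were higher in B1b cells and 2 higher in aortas. The median log2 difference was 5.36, and the shares over all tested genes were 35.4% and 40.4%. Cd79a (chr7:24897497-24901858), a signalling chain of the antigen receptor, stood at 1480, 1293 and 1409 CPM in B1b libraries and at 4.52, 4.19, 2.68, 1.56 and 4.24 CPM in aortas. All 3 B1b values were far above every aorta (log2 difference 8.76, SE 0.26; edgeR adjusted p = 3.51e-11). Ms4a1 (chr19:11249679-11266149), which encodes the B cell membrane protein CD20, stood at 1739, 1911 and 1951 CPM in B1b libraries and at 7.37, 4.41, 2.2, 1.42 and 10.6 CPM in aortas. Relative to their mean the aortic values varied more than the B1b values did, and no aorta came near any B1b library. Cd79b, the partner chain of Cd79a, differed by 7.79, Fcmr, the Fc receptor for IgM, by 8.05, and Fcrla, an Fc receptor-like protein of B cells, by 7.94 on the log2 scale. Both exceptions encode surface proteins with roles in B cell signalling. Cd72, an inhibitory receptor, was 40.7 ± 14.3 CPM in B1b cells (SD, n = 3) and 94.3 ± 29.7 CPM in aortas (SD, n = 5), with overlapping groups. Cd81, a tetraspanin made by many cell types, was 162 ± 6.02 CPM against 354 ± 32.6 CPM, with no overlap.

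Signalling genes downstream of the receptor followed the same direction. Of 25 tested genes of the receptor signalling list, 24 were higher in B1b cells and 0 higher in aortas. The 1 left, the calcium channel gene Orai1, was not called. The median log2 difference was 2.97, and 35.4% of all tested genes were higher in B1b cells. Syk, the first kinase recruited by the receptor, stood at 3690, 3713 and 3780 CPM in B1b libraries and at 133, 127, 146, 173 and 98 CPM in aortas. Bank1, a B cell scaffold protein, differed by 7.74, and Blk, a Src-family kinase of B cells, by 7.24 on the log2 scale. For each of these 3 genes no aorta reached the lowest B1b library.

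Transcription factors of the B lineage were on the B1b side with few exceptions. Of 22 tested factors, 20 were higher in B1b cells and 2 higher in aortas, against 35.4% and 40.4% of all tested genes. All 22 groups were free of overlap, against 72.5% of all tested genes. The median log2 difference was 3.53. Pou2af1, the octamer co-activator of B cells, differed by 7.999, Spib, an ETS factor, by 7.84, and Ikzf3, the Aiolos factor, by 7.402. Pax5, the factor that holds B cell identity, stood at 178, 197 and 199.6 CPM in B1b libraries and at 1.1 to 4.85 CPM in aortas. The exceptions were Id3, an inhibitor of E proteins, with 7.34 to 19.8 CPM in B1b libraries against 125 to 195 CPM in aortas, and Bcl6, a repressor of germinal centre B cells, with 32.1 to 42 against 73.8 to 125 CPM.

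Markers of the B-1 lineage were then read. Set against aortas alone, they cannot tell B1b cells from other B cells. Of 20 tested markers, 14 were higher in B1b cells, 4 higher in aortas and 2 not called. The median log2 difference was 3.25. Shares over all tested genes were 35.4% higher in B1b cells and 40.4% higher in aortas. Il5ra, the receptor chain for interleukin-5 that B-1 cells carry, stood at 227, 311 and 258 CPM in B1b libraries and at 1.19, 0.441, 0.472, 0.566 and 1.59 CPM in aortas. Zbtb32 (chr7:30589680-30602819), a transcription factor found in B-1 and memory B cells, stood at 358, 353 and 284 CPM in B1b libraries and at 0.315 to 2.65 CPM in aortas. Fcrl5, an Fc receptor-like protein of innate-like B cells, differed by 8.46, and Siglecg, an inhibitory lectin that restrains B-1 cells, by 7.22 on the log2 scale. For these 4 genes every B1b library stood far above every aorta. Of the markers higher in aortas, the transcription factor gene Bhlhe40 was 9.48 ± 0.495 CPM in B1b cells (SD, n = 3) and 94.2 ± 17.9 CPM in aortas (SD, n = 5). The fatty-acid receptor gene Cd36 was 36.3 ± 9.18 against 299 ± 157 CPM, and the tetraspanin gene Cd9 was 50.8 ± 4 against 364 ± 48.8 CPM. These 3 are also expressed by cells of the vessel wall, and no group overlapped for any of them. Itgam, an integrin of peritoneal B-1 cells and of myeloid cells, was 156 to 192 CPM in B1b libraries and 91.3 to 189.9 CPM in aortas, and was not called (edgeR adjusted p = 0.0507).

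Genes that mark conventional B cells were present in the sorted libraries too. Of 11 tested, 8 were higher in B1b cells, 1 was higher in aortas and 2 were not called. For all tested genes the shares on these sides were 35.4% and 40.4%. Cxcr5, the receptor for the follicle chemokine CXCL13, stood at 1425, 1539 and 1463 CPM in B1b libraries and at 5.66 to 11.5 CPM in aortas. Fcer2a, which encodes CD23, stood at 102, 65.6 and 119 CPM, and Cr2, the complement receptor gene, at 112, 90.4 and 141 CPM in B1b libraries. Both were below 8 CPM in every aorta. The comparison holds no other B cell subset, so these levels were not set against those of follicular or marginal zone B cells.

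Co-stimulation and antigen presentation genes were mostly on the B1b side. Of 21 tested genes of the CD40 and co-stimulation list, 17 were higher in B1b cells and 0 higher in aortas. The median log2 difference was 1.51, and 35.4% of all tested genes were higher in B1b cells. Tnfrsf13c, the receptor for the survival factor BAFF, stood at 201, 146 and 144 CPM in B1b libraries and at 0.424 to 2.12 CPM in aortas. Cd69, an early activation antigen, differed by 5.70, Ltb, which encodes lymphotoxin beta, by 4.41, and Cd274, which encodes PD-L1, by 3.20 on the log2 scale. Of 17 tested MHC class II genes, 14 were higher in B1b cells and 2 higher in aortas (median 1.90). These compare with 35.4% and 40.4% of all tested genes. H2-DMb2 and H2-Ob, which encode chains of the peptide-loading chaperones, differed by 6.81 and 6.59. The exceptions were 2 lysosomal proteases that process antigen and are abundant in macrophages: Lgmn was 65.9 ± 4.88 CPM in B1b cells (SD, n = 3) and 558 ± 149 CPM in aortas (SD, n = 5), and Ctss was 669 ± 26 against 1150 ± 360.1 CPM.

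Antibody secretion genes were split. Of 16 tested, 8 were higher in B1b cells, 4 higher in aortas and 4 not called. Among all tested genes 35.4% were higher in B1b cells and 40.4% higher in aortas. The median was 0.55, against -0.091 over all genes. Mzb1, a chaperone of innate-like B and plasma cells, stood at 251, 259 and 272 CPM in B1b libraries and at 1.26 to 4.41 CPM in aortas. Irf4 differed by 5.31, and Prdm1, the plasma cell regulator, by 2.20 on the log2 scale. Sdc1, the plasma cell antigen syndecan-1 that epithelial and stromal cells also make, was at 5.39, 2.32 and 2.75 CPM in B1b libraries and at 82.1 to 201 CPM in aortas. Xbp1, the secretory stress factor, was also lower in B1b cells, at 106 to 120.0 CPM against 171 to 242 CPM.

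Toll-like receptors divided between the tissues by member. Of 19 tested genes of the list, 11 were higher in B1b cells, 6 higher in aortas and 2 not called. Over all tested genes the shares on these sides were 35.4% and 40.4%. Tlr9, the DNA sensor, was 259 ± 17.2 CPM in B1b cells (SD, n = 3) and 12.4 ± 3.51 CPM in aortas (SD, n = 5). Cd180 and Ly86, which encode a receptor complex of B cells related to the Toll-like receptors, differed by 3.09 and 2.41, and Tlr1 by 2.66 on the log2 scale. On the other side, Tlr8 was 0 to 4.06 CPM in B1b libraries and 32.8 to 67.5 CPM in aortas, and Cd14, the lipopolysaccharide co-receptor of macrophages, 0.808 to 4.06 against 34.4 to 84.2 CPM. Tlr5 had no count in any B1b library and 105 counts in aortas, at least 35.3-fold lower in B1b cells with the floor of 3 counts over the group.

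Cytoskeletal regulators of leukocytes and ribosomal proteins were higher in B1b cells as groups. Of 19 leukocyte actin regulators, 18 were higher in B1b cells and 1 was not called (median 3.28). Of all tested genes, 35.4% were higher in B1b cells. Tbc1d10c, which restrains calcium signalling in lymphocytes, stood at 312, 317 and 314 CPM against 3.18 to 13.4 CPM, and Arhgap15, a Rac inhibitor, at 212 to 244 against 5.67 to 11.6 CPM. Of 58 tested ribosomal protein genes, 46 were higher in B1b cells, 0 higher in aortas and 12 not called (median 1.15). Rpl23 was 419 ± 47.2 CPM in B1b cells (SD, n = 3) and 106 ± 17.8 CPM in aortas (SD, n = 5). Ribosomal protein genes have near-identical copies in the genome, among which reads can be split, so their levels are uncertain. Myc, a driver of ribosome production, stood at 465, 454 and 482 CPM in B1b libraries and at 26.4, 30.2, 18.4, 20.4 and 20.7 CPM in aortas (log2 difference 4.33, SE 0.16). It was listed among the immediate early genes, and its part in the ribosomal result was not tested.

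**Figure D2:**
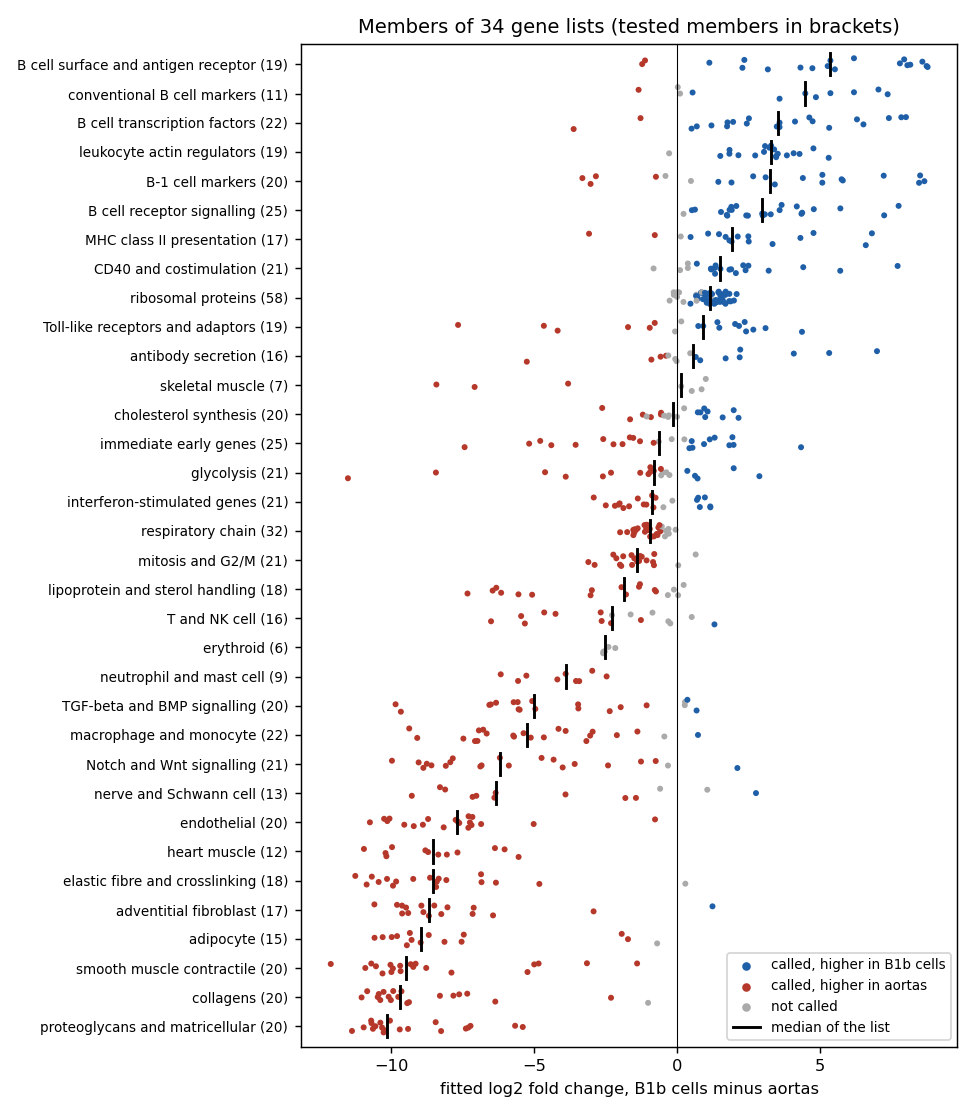
Fitted log2 difference (B1b minus aorta) of each tested member of 34 gene lists, with the number of tested members in brackets, coloured by call, and the list's median as a black bar. Medians run from 5.36 for the B cell surface list at the top to -10.14 for proteoglycans and matricellular genes at the bottom; fitted values of genes without a B1b count depend on the prior count.

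On the aortic side most contractile genes of smooth muscle stood far above their level in B1b cells. All 20 smooth muscle genes were higher in aortas past 2-fold, against 29.3% of all tested genes, with a median log2 difference of -9.50 (-9.40 with zero-count genes at their bound). Acta2 (chr19:34240336-34255585), smooth muscle actin, stood at 5.25, 4.38 and 3.95 CPM in B1b libraries and at 6668, 7932, 5344, 5798 and 7903 CPM in aortas. Myh11, the smooth muscle myosin heavy chain, was 2.19 ± 0.203 CPM in B1b cells (SD, n = 3) and 3669 ± 985 CPM in aortas (SD, n = 5), and Myl9, a myosin light chain, 0.985 ± 0.176 against 1937 ± 276 CPM. Both groups were far apart for each gene. Actg2, another smooth muscle actin, had no count in B1b libraries and 2105 counts in aortas, at least 709-fold lower in B1b cells. The smallest difference of the list was that of Flna, a filamin made by many cell types and named after its values were seen, at 2148 ± 86.1 CPM in B1b cells (SD, n = 3) and 5681 ± 1058 CPM in aortas (SD, n = 5).

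Among the 34 lists, proteoglycans and collagens had the medians furthest on the aortic side. Of 20 tested collagen genes, 19 were higher in aortas and 1, Col9a3, was not called (median -9.70). The share higher in aortas over all tested genes was 40.4%. Col3a1 (chr1:45311538-45349706), a fibrillar collagen of arteries, stood at 4.71, 4.12 and 4.83 CPM in B1b libraries and at 9670, 10974, 7704, 11314 and 8506 CPM in aortas. The aortas exceeded the B1b libraries by more than 10 units on the log2 scale (log2 difference -11.04, SE 0.29). Of 18 elastic fibre and crosslinking genes, 17 were higher in aortas and 1, Fbn2, was not called (median -8.54). Eln, which encodes elastin, was 2.03 ± 0.162 CPM in B1b cells (SD, n = 3) and 2838 ± 498 CPM in aortas (SD, n = 5). All 20 proteoglycan and matricellular genes were higher in aortas (median -10.14). Bgn (chrX:73483601-73495936), which encodes the proteoglycan biglycan, stood at 2.96, 3.09 and 2.2 CPM in B1b libraries and at 8092, 7260, 6951, 7822 and 6439 CPM in aortas. Within each group the Bgn values were close to each other (log2 difference -11.37, SE 0.27; edgeR adjusted p = 2.02e-11).

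Most endothelial and fibroblast markers were at or near 0 in the sorted cells. All 20 endothelial genes were higher in aortas, against 40.4% of all tested genes. The list's median was -7.71, or -7.62 with zero-count genes at their bound. Cldn5, the tight-junction protein of endothelium, had no count in any B1b library and stood at 32.6, 28, 41.2, 38.6 and 37.1 CPM in aortas, at least 293-fold lower in B1b cells. Sox18 and Robo4, an endothelial transcription factor and guidance receptor, were likewise without a B1b count, at least 197-fold and 183-fold lower. Pecam1, an adhesion molecule that leukocytes also carry and that is named after its values were seen, was far from 0, at 278 ± 13.9 CPM in B1b cells (SD, n = 3) and 478 ± 136 CPM in aortas (SD, n = 5). Of 17 adventitial fibroblast genes, 16 were higher in aortas and 1 higher in B1b cells (median -8.69). Dpt, which encodes dermatopontin, was 0.475 ± 0.261 CPM in B1b cells (SD, n = 3) and 789 ± 153 CPM in aortas (SD, n = 5). The exception was Ly6a, the Sca-1 antigen that lymphocytes also carry, at 754 ± 12 CPM in B1b cells and 320.4 ± 83.7 CPM in aortas.

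Fat, heart muscle and nerve were part of the dissected aortas. Of 15 tested adipocyte genes, 14 were higher in aortas and 1 was not called (median -8.97), and the summed level of the list in aortas ran from 3548 to 16633 CPM. Fabp4, the fatty-acid binding protein of fat cells, stood at 399.7, 421, 757, 603 and 1985 CPM in aortas, highest in replicate 5, and at 0.439 to 1.21 CPM in B1b libraries. Scd1, the fatty-acid desaturase, was the gene not called, with 1575 to 1650 CPM in B1b libraries and 1016 to 7398 CPM in aortas. All 12 heart muscle genes were higher in aortas (median -8.53), where their summed level ran from 798 to 3601 CPM. Without B1b replicate 3 the heart median was -9.15. Myh6, the cardiac myosin heavy chain, was lowest in aorta replicate 4 with 169.9 CPM and 594 to 907 CPM in the other aortas, against 0 to 0.674 CPM in B1b libraries. Of 13 nerve and Schwann cell genes, 10 were higher in aortas, against 40.4% of all tested genes. In the same list 1 was higher in B1b cells and 2 were not called. Mbp, whose locus also encodes Golli proteins of lymphocytes, was the exception with 139 to 169 CPM in B1b libraries and 20.1 to 27.5 CPM in aortas. That call depended on the transcript kept: with all Mbp transcripts summed the log2 difference was 0.71 (edgeR adjusted p = 0.153). Of 7 tested skeletal muscle genes, 3 were higher in aortas and 4 were not called. The share higher in aortas was near the 40.4% of all tested genes. The part of attached tissue in the aortic side of the comparison was not tested.

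Other leukocytes were read on both sides. Of 22 macrophage and monocyte genes, 20 were higher in aortas, against 40.4% of all tested genes. Of the rest, 1 was higher in B1b cells and 1 was not called (median of the list -5.25). The list's summed level was 159 to 327 CPM in B1b libraries and 3734 to 8652 CPM in aortas. Gpnmb, a lysosomal glycoprotein of foam cells, stood at 1.35, 2.06 and 3.29 CPM in B1b libraries and at 1026, 1069, 1736, 1838 and 586 CPM in aortas. Trem2, the lipid-sensing receptor of foam cells, had 3 counts over the B1b libraries and 2580 over the aortas, a scaled ratio of 869 (95% counting interval 297 to 4214, for counting error only). Csf1r, the receptor that defines monocytes and macrophages, was 6.6 to 9.88 CPM in B1b libraries and 241 to 398 CPM in aortas. No group overlapped for these 3 genes, and no macrophage list member was without a count in B1b libraries. Lyz2, named after its values were seen, was 101 ± 42.9 CPM in B1b cells (SD, n = 3) and 1799 ± 714 CPM in aortas (SD, n = 5). Ccr2 stood at 8.62, 17.3 and 36.7 CPM in B1b replicates 1, 2 and 3. The list's mean log2 CPM was 1.57, 1.94 and 2.37 in the same order. The source of this RNA in the sorted libraries was not tested. The 1 list member higher in B1b cells, Lyz1, was 7.41 to 15 CPM in B1b libraries and 4.99 to 9.62 CPM in aortas. Its groups overlapped, and without B1b replicate 3 its log2 difference was 0.55 (edgeR adjusted p = 0.18).

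Of 16 T and NK cell genes, 9 were higher in aortas, 1 was higher in B1b cells and 6 were not called. Over all tested genes 40.4% were higher in aortas and 35.4% higher in B1b cells. The summed level of the list was 41.2 to 48 CPM in B1b libraries and 149.9 to 291 CPM in aortas. Thy1, an antigen of T cells, fibroblasts and nerve, was 1.19 ± 0.704 CPM in B1b cells (SD, n = 3) and 113 ± 26.1 CPM in aortas (SD, n = 5). Cd3d, a chain of the T cell receptor complex, had 3 counts over the B1b libraries and 82 over the aortas. All 9 tested neutrophil and mast cell genes were higher in aortas, where they summed to 73.6 to 145 CPM. None of the 6 tested erythroid genes was called by edgeR. Hbb-bs, a globin gene, stood at 683, 6.05 and 15.8 CPM in B1b libraries and at 796, 289.9, 1243, 285 and 4207 CPM in aortas, so B1b replicate 1 and aorta replicate 5 each stood above the rest of their group. Without B1b replicate 1 Hbb-bs was called higher in aortas (log2 difference -6.94, edgeR adjusted p = 0.00929). The part of red cell RNA in other results was not tested.

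**Figure D3:**
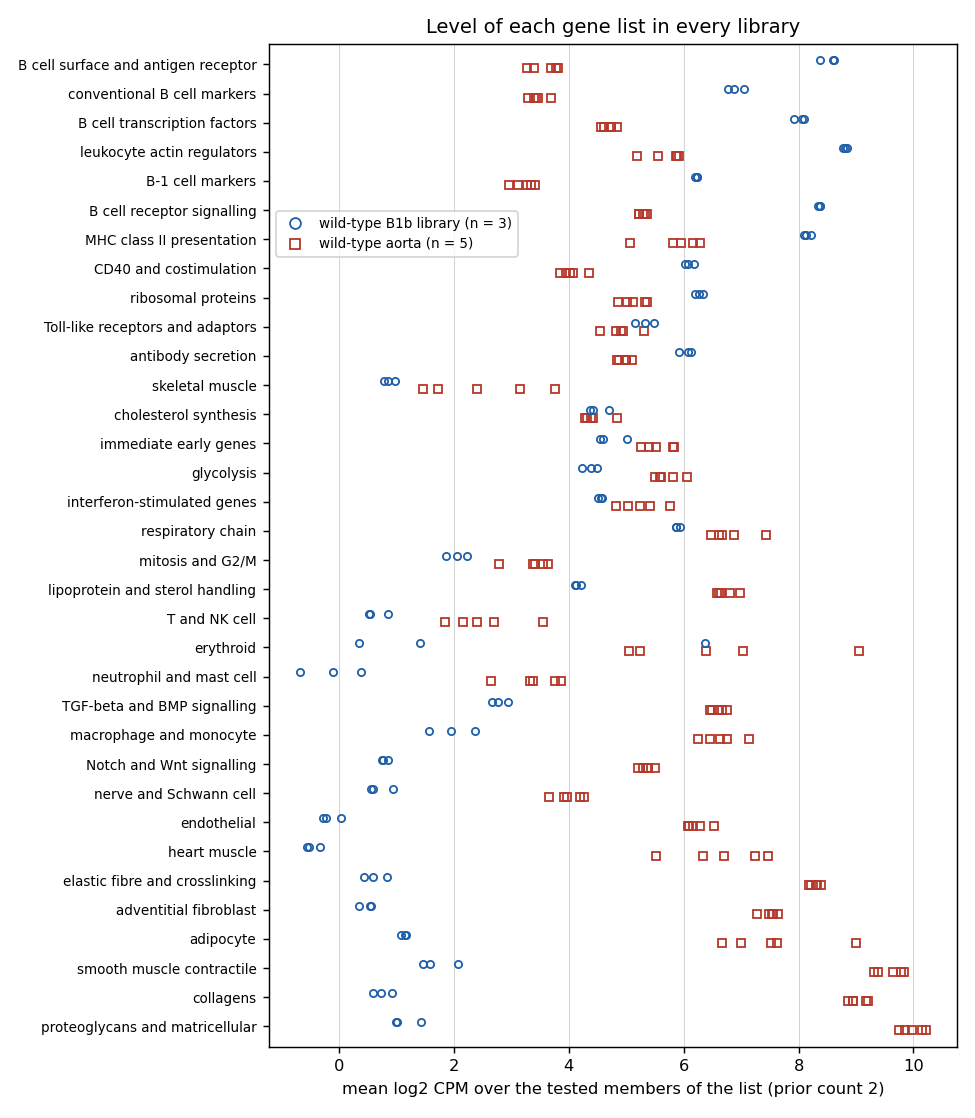
Mean log2 CPM (prior count 2) over the tested members of each list, with 1 symbol per wild-type library, circles for B1b cells (n = 3) and squares for aortas (n = 5). Groups are apart for the B cell lists above and the vessel wall lists below; in the erythroid list B1b replicate 1 lies among the aortas at 6.38 while the other B1b libraries are at 0.35 and 1.42.

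Single genes with the widest differences were named by rule as the 15 largest on each side among genes past 2-fold, without overlap and with at least 100 CPM in the higher group. On the B1b side the largest, Cacna1i (chr15:80287238-80398292), encodes the pore of a T-type calcium channel. It stood at 309, 352 and 294 CPM in B1b libraries and at 1.19, 0.441, 0.629, 0.566 and 1.06 CPM in aortas (log2 difference 8.76, SE 0.20). Cacna1e (chr1:154390806-154884785), the pore of an R-type calcium channel, stood at 619.8, 778 and 830.1 CPM against 0.849 to 4.24 CPM (log2 difference 8.73, SE 0.29). Ly6d, a surface antigen of B-lineage progenitors and B cells, was 616 ± 19.4 CPM in B1b cells (SD, n = 3) and 1.81 ± 1.23 CPM in aortas (SD, n = 5). Each of the 3 genes was above 290 CPM in all B1b libraries and below 5 CPM in all aortas.

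On the aortic side the first 6 genes had no count in any B1b library. Efhd1, a mitochondrial calcium-binding protein, stood at 145, 149, 114, 121 and 166 CPM in aortas and was at least 1070.2-fold lower in B1b cells. Sema3c, a secreted semaphorin, and Podxl, a sialomucin of endothelium, were at least 1060.4-fold and 1049.7-fold lower, with 3150 and 3118 counts over the aortas. Kcnj15, a potassium channel, and Fibin, a secreted factor, were at least 958-fold and 768-fold lower. Cyp2e1, a cytochrome P450 of liver and fat, was at least 659.8-fold lower and stood at 17.6, 35.1, 63.6, 112 and 282 CPM in aortas, a wide spread with replicate 5 highest. Ptgis, prostacyclin synthase of the vessel wall, had 2 counts over the B1b libraries and 9101 over the aortas, a scaled ratio of 4596 (95% counting interval 1272 to 37954).

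Stretches just upstream of annotated transcription starts were read for genes of either side. The windows are the 250 bases before a RefSeq start in GRCm38.p6. Motifs were searched on both strands: CAGGTG, a form of the E-box bound by E proteins; GAGGAAGT, a core bound by ETS factors such as PU.1 and SpiB; ATGCAAAT, the octamer; GGGCGG, the GC box; and the CArG box of serum response factor. None of these motifs is contained in another. Windows of 3 B cell genes with this E-box and of 1 smooth muscle gene with a CArG box are shown, from RefSeq. Capitals mark only the motifs named before each window; those of Cd37 and Myl9 also hold GGGCGG, left in lower case. Each window precedes the start of 1 RefSeq record of the gene, which was the start of the counted transcript in Cd79a only: the windows of Fcrla and Cd37 lie inside the counted transcript, and that of Myl9 overlaps its first bases. A match is a description, not a site.
Cd79a, chr7:24897247-24897496, plus strand, CAGGTG: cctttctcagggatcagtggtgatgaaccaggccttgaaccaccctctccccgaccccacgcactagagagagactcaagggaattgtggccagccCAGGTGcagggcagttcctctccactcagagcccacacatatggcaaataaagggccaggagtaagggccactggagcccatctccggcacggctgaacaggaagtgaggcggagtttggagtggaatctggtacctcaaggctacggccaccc
Fcrla, chr1:170927584-170927833, minus strand, CAGGTG: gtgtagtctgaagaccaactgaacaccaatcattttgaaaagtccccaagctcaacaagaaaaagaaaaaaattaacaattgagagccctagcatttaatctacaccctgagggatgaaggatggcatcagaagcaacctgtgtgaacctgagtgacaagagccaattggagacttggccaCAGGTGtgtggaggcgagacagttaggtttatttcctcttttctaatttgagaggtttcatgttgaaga
Cd37, chr7:45238840-45239089, minus strand, CAGGTG and GAGGAAGT both on the opposite strand: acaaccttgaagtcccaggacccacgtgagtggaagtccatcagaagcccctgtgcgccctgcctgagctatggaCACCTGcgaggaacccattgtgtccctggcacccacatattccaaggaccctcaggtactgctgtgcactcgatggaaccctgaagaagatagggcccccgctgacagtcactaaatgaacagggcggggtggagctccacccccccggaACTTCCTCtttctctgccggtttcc
Myl9, chr2:156775214-156775463, plus strand, CArG: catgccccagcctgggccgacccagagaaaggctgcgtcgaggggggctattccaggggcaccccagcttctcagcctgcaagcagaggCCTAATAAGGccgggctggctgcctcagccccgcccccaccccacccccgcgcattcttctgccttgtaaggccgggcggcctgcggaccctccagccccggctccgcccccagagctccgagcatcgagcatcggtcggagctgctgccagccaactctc

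The first base of the E-box lay 154 bases before the start in Cd79a, 69 in Fcrla and 175 in Cd37, and the ETS motif of Cd37 lay 25 bases before the start. The CArG box of Myl9 began 161 bases before its start. Of the 287 genes called 16-fold or more higher in B1b cells, 212 had at least 1 window, 256 windows in all, and 30.9% of these windows held CAGGTG. The share was 16.7% of 2305 windows of the 1770 matched genes on the aortic side, 15.7% of windows of all tested genes and 17.2% of all 32851 windows. GAGGAAGT was in 6.25% of B1b-side windows, 1.78% of aortic-side windows and 2.51% of tested windows, and ATGCAAAT in 3.91%, 1.3% and 1.23%. GGGCGG went the other way, with 32.4%, 47.9% and 55.1%, and mean GC content was 53.7%, 58.3% and 59.4%. The CArG box was in 1.56%, 1.78% and 1.17%, and in 2 of 18 windows of the smooth muscle list. GC content differed between the sets along with the motif shares, its part in them was not tested, and no test was run on the shares.

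Related genes of which 1 member is known from leukocytes were compared as 38 pairs, 37 of them with both genes tested. Some of the members called leukocyte here, such as Myl12b, Myh9, Actb and Vim, are made by most cells. In 25 pairs the leukocyte member was called higher in B1b cells and its relative higher in aortas. In 8 pairs both were higher in B1b cells, in 3 the leukocyte member was not called and the relative was higher in aortas, and in 1 the relative was not called. The sum of both genes' counts per kilobase was used to give each library a share for the leukocyte member. In 34 of 36 pairs with known lengths all 3 B1b shares were above every aortic share. Among all tested genes, taken singly and in either direction, 72.5% had groups without overlap. The pairs were chosen for a member known from leukocytes, so this count is a description and not a test. Dock2, the Rac exchange factor of lymphocytes, made up 99.8% of the Dock2 and Dock1 total in each B1b library and 52.2%, 49.6%, 59.4%, 55.4% and 33.6% in aortas. Rac2, a GTPase of blood cells, made up 86.5%, 84.2% and 84.6% of the Rac2 and Rac1 total in B1b libraries and 16.5% to 25.4% in aortas. In both pairs the lowest share was that of aorta replicate 5. Rac1 itself was called by a small margin, and without B1b replicate 1 its log2 difference was -0.31 (edgeR adjusted p = 0.0816).

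Myosins and actins were among the pairs. Myl12b, a regulatory light chain made by most cells, made up 98.8% to 99.2% of the Myl12b and Myl9 total in B1b libraries and 1.88% to 2.88% in aortas. Myh9, the heavy chain of the same kind, was higher in B1b cells as a level, at 1742 ± 53.9 CPM (SD, n = 3) against 786 ± 84.2 CPM (SD, n = 5). Tnfrsf13c against Tnfrsf1a, receptors for BAFF and TNF, gave 98.2% to 99.2% in B1b libraries and 0.205% to 1.32% in aortas. Actb and Vim, actin and vimentin of most cells, were not called (log2 differences 0.15, interval -0.18 to 0.49, and 0.07, interval -0.26 to 0.40), while Acta2 and Des were higher in aortas. For NF-kB, Rel and Rela were both higher in B1b cells, and Rel made up 13.7% to 16.9% of their total in B1b libraries and 1.08% to 3.19% in aortas. The pairs whose shares overlapped were Traf1 with Traf4, and Sp140 with Sp100.

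**Figure D4:**
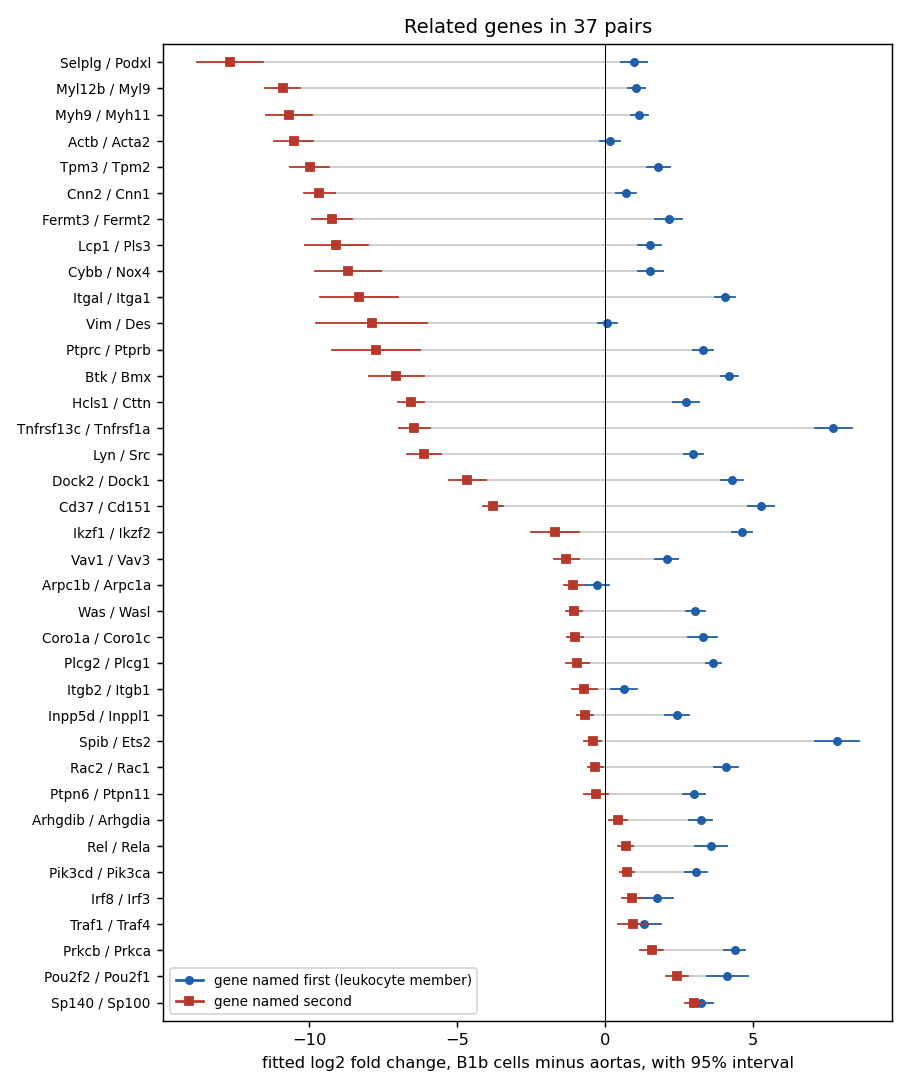
Fitted log2 difference (B1b minus aorta) with its 95% interval for both genes of 37 pairs, the leukocyte member as a blue circle and its relative as a red square. In 25 pairs the circle was called to the right of 0 and the square to the left; in the 8 pairs with both genes higher in B1b cells, among them Sp140 and Sp100, both symbols lie to the right.

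Signals made by one side for receptors of the other were read from 31 ligand and receptor pairs. Of 30 ligand genes, 23 were tested: 20 were higher in aortas, 2 higher in B1b cells and 1 not called. Ccl20, Ccl21a, Cd40lg, Il5, Il4, Il10 and Madcam1 had too few counts to test. Of 26 receptor genes, 16 were higher in B1b cells, 9 higher in aortas and 1 not called. Among all tested genes 35.4% were higher in B1b cells and 40.4% higher in aortas. In 12 of the 24 pairs with both genes tested the ligand was higher in aortas and the receptor in B1b cells. In 9 both were higher in aortas, and in 1 both were higher in B1b cells. How often other pairs of genes would divide in this way was not tested.

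Cxcl12 (chr6:117168535-117181368), the chemokine of stromal cells, stood at 0.135, 0.386 and 0 CPM in B1b libraries and at 433, 358, 336, 440.2 and 380.4 CPM in aortas. Its receptor gene Cxcr4 stood at 432, 419.6 and 353 CPM in B1b libraries and at 49.4, 61.3, 56.7, 72 and 26 CPM in aortas. The 2 genes were apart in opposite directions, by -11.03 and 2.89 on the log2 scale. Vcam1, the adhesion molecule of activated endothelium and smooth muscle, was 0.373 ± 0.039 CPM in B1b cells (SD, n = 3) and 492 ± 136 CPM in aortas (SD, n = 5). Itga4, a chain of its integrin receptor, was 1496 ± 251 against 50.9 ± 5.34 CPM.

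Genes of 3 survival and homing factors of B cells were measurable in every aorta and higher there than in B1b libraries. Tnfsf13b, which encodes BAFF, stood at 32.3, 23.4, 29.6, 29.3 and 20.7 CPM in aortas and at 0.258 to 0.943 CPM in B1b libraries, and Tnfsf13, which encodes APRIL, at 19.8 to 33.5 against 1.16 to 1.65 CPM. Cxcl13, the ligand of CXCR5, stood at 3.18 to 6.08 CPM in aortas and at 0.439 to 1.08 CPM in B1b libraries. No group overlapped for these 3 ligands. Jag1, a Notch ligand, was 78.4 ± 7.21 CPM in aortas (SD, n = 5) and 3.94 ± 1.09 CPM in B1b cells (SD, n = 3), while Notch2, the Notch receptor of innate-like B cells, was 190.5 ± 34.2 against 819 ± 30.5 CPM. Both genes were on the aortic side for vessel and myeloid growth factors such as Csf1 with Csf1r, Pdgfb with Pdgfrb and Vegfa with Kdr. The same held for the chemokine and cytokine pairs Ccl2 with Ccr2, Il33 with Il1rl1 and Il7 with Il7r. Tgfb1 was 207 ± 15.7 CPM in B1b cells and 129 ± 22 CPM in aortas, a log2 difference of 0.68, and its receptor Tgfbr2 was not called (log2 difference 0.27, edgeR adjusted p = 0.0682).

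**Figure D5:**
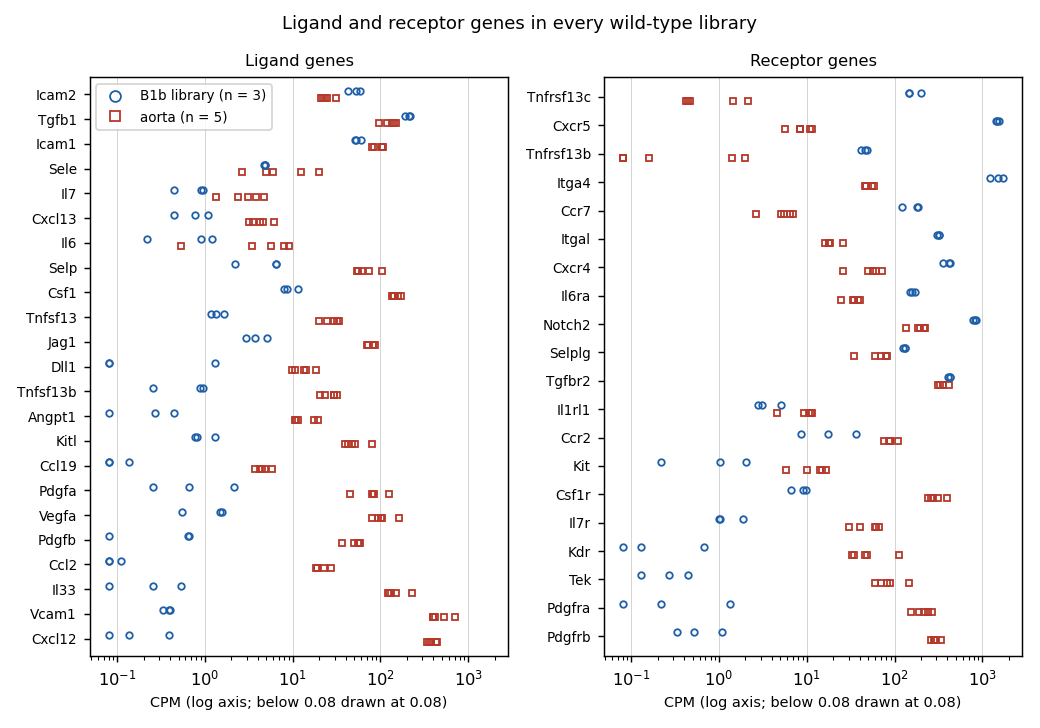
CPM of the ligand genes (left) and receptor genes (right) of the 24 pairs with both genes tested, in every wild-type library on a log axis, circles for B1b cells (n = 3) and squares for aortas (n = 5); values below 0.08 are drawn at 0.08. Cxcl12 and Vcam1 lie above 330 CPM in all aortas and below 0.5 CPM in all B1b libraries, and Cxcr4 and Itga4 are higher in all B1b libraries.

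Pathways of vessel development were on the aortic side. Of 20 TGF-beta and BMP genes, 16 were higher in aortas, against 40.4% of all tested genes. A further 2 were higher in B1b cells and 2 not called (median of the list -5.02). Bmp4, a ligand, was 0.653 ± 0.128 CPM in B1b cells (SD, n = 3) and 62.1 ± 2.72 CPM in aortas (SD, n = 5). The 2 genes higher in B1b cells were the ligand Tgfb1 and the mediator Smad3. The Smad3 difference of 0.36 was small and was 0.26 under DESeq2 size factors (edgeR adjusted p = 0.12). Of 21 Notch and Wnt genes, 19 were higher in aortas, against 40.4% of all tested genes. In this list 1 gene, Notch2, was higher in B1b cells and 1 was not called. The list's median was -6.20, or -6.18 with zero-count genes at their bound. Sfrp1, a Wnt inhibitor, stood at 0 to 0.439 CPM in B1b libraries and at 245 to 379 CPM in aortas.

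Genes of lipoprotein handling were mostly higher in aortas. Of 18 tested genes for lipoprotein and sterol handling, 14 were higher in aortas, against 40.4% of all tested genes. The other 4 were not called (median of the list -1.87). Lrp1, a lipoprotein receptor of smooth muscle and macrophages, was 14.6 ± 5.68 CPM in B1b cells (SD, n = 3) and 2375 ± 606 CPM in aortas (SD, n = 5). Vldlr differed by -6.45 and the scavenger receptor gene Msr1 by -6.16 on the log2 scale, while the cholesterol exporter gene Abca1 was not called at 318 to 378 CPM in B1b libraries and 361 to 619 CPM in aortas. Of 20 tested genes of cholesterol synthesis, 8 were higher in B1b cells, 6 higher in aortas and 6 not called (median -0.15), near the 35.4% and 40.4% called on each side and the median of -0.091 over all tested genes. Srebf2, the master regulator, was 347 ± 21.7 CPM in B1b cells and 79.1 ± 14.9 CPM in aortas. Fdft1, squalene synthase, went the other way at 15.2 ± 0.17 against 93.4 ± 13.5 CPM.

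Energy metabolism genes were mostly on the aortic side. Of 32 tested respiratory chain genes, 26 were higher in aortas, against 40.4% of all tested genes. In this list 0 were higher in B1b cells and 6 not called (median -0.95). The list's mean log2 CPM was 7.44 in aorta replicate 5 and 6.48 to 6.87 in the other aortas; that of the adipocyte list was 9.01 there and 6.67 to 7.62 in the others, and its part in the respiratory result was not tested. Uqcrq, a complex III subunit, was 27.1 ± 4.1 CPM in B1b cells (SD, n = 3) and 109 ± 27.9 CPM in aortas (SD, n = 5). Of 21 glycolysis genes, 12 were higher in aortas, 5 higher in B1b cells and 4 not called (median -0.82). Among all tested genes 40.4% were higher in aortas and 35.4% higher in B1b cells. Slc2a4, the insulin-sensitive glucose transporter of muscle and fat, had no count in B1b libraries and 35.7 to 133 CPM in aortas, at least 421-fold lower, and Pfkm, the muscle phosphofructokinase, was 3.6 ± 0.778 against 89.6 ± 18.2 CPM. Slc2a3, a glucose transporter of leukocytes and neurons, was higher in B1b cells at 31.3 ± 3.1 against 7.68 ± 2.09 CPM. Several glycolysis genes also have near-identical copies, so their levels are uncertain.

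Genes that respond to stimulation or handling were found on both sides. Of 25 immediate early genes, 12 were higher in aortas, 10 higher in B1b cells and 3 not called (median -0.65), shares near the 35.4% higher in B1b cells and 40.4% higher in aortas among all tested genes. Dusp1, a phosphatase induced by stress, stood at 7.54, 5.02 and 8.13 CPM in B1b libraries and at 136, 169.5, 137, 166 and 124 CPM in aortas. Myc, Btg2 and Egr3 were higher in B1b cells (log2 differences 4.33, 1.93 and 1.97), and Fos and Fosb were not called. Of 21 interferon-stimulated genes, 13 were higher in aortas, 6 higher in B1b cells and 2 not called (median -0.88). The shares over all tested genes were 40.4% and 35.4% in that order. Ifi44 was 2.56 ± 1.01 CPM in B1b cells (SD, n = 3) and 19.7 ± 7.55 CPM in aortas (SD, n = 5). Their part in the other results was not tested.

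Cell division genes were mostly lower in the wild-type B1b cells. Of 21 mitosis genes, 19 were higher in aortas, 0 higher in B1b cells and 2 not called (median -1.42). In all tested genes the share higher in aortas was 40.4%. Cdk1, the mitotic kinase, stood at 0.539, 1.29 and 1.65 CPM in B1b libraries and at 16.4, 8.82, 8.03, 10.5 and 7.42 CPM in aortas. Only 2 of the 19 calls, Cdk1 and Ube2c, were called in the same direction in the cre libraries. Mki67, the proliferation marker, was lower in wild-type B1b cells than in aortas (log2 difference -0.80) and higher in cre B1b cells (log2 difference 1.04), passing in both by edgeR (adjusted p = 0.00346 and 0.00662). The difference between the genotypes was tested over all 16 libraries and did not pass for Mki67 (log2 -1.78, wild type minus cre; edgeR adjusted p = 0.135).

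The same comparison in the 8 cre libraries, which share no sample with the wild-type ones, served as a repeat with the genotype changed. There 14407 genes were tested and 10665 (74%) called. Of the 10878 wild-type calls, 9589 (88.2%) were called in the same direction. Of the 6423 calls past 2-fold, 5726 (89.1%) were also past 2-fold in the same direction. Of all 10878 wild-type calls, 4 were opposite in the cre libraries, and none of these was past 2-fold in wild type. The opposite genes, chosen after their values were seen, were Gria2, Gt(ROSA)26Sor, Mki67 and Xk. Of the calls at 16-fold or more, 264 of 287 on the B1b side and 2365 of 2430 on the aortic side returned. All called members of the B cell factor, receptor signalling, smooth muscle, collagen, proteoglycan and endothelial lists returned, while 36 of 46 called ribosomal genes and 7 of 14 called cholesterol synthesis genes did.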

How the data were processed

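Direct-zol extraction was followed by KAPA mRNA Hyperprep library preparation, per the labels' protocols. The deposited values are raw read counts per RefSeq transcript. Base calls and alignment used CASAVA 1.8.2, STAR 2.5.2b and mm10, per the submitters' processing notes; not given in the sources used here are the counting tool, annotation and strand setting. Of 35745 transcripts, 35440 were named from the RefSeq gene table and 188 from GENCODE, and 117 unnamed transcripts held 0.29% to 1.16% of a wild-type library. The transcript of highest total count stood for each gene. Of 4666 genes with at least 2 transcripts and 100 counts, 73.6% had a smallest transcript with 90% or more of the counts of the largest, so reads appear under several transcripts.

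Counts were tested with edgeR 4.0.16 in R 4.3.3: TMM factors, the default filter on low counts, a robust quasi-likelihood fit and Benjamini-Hochberg adjustment at 0.05. The common biological coefficient of variation was 0.209. A model over all 16 libraries tested the difference between genotypes, and the scripts were tested on simulated data. In the simulation 7.91% of 139 calls were false, and 60% of 2-fold and 92% of 4-fold changes were called. It changed far fewer genes than were called here, so it does not cover the scaling of these data. Genes were named by rule: the strain, genotype and gate genes, the 15 largest differences on each side with at least 100 CPM, up to 4 members per list in its main direction and up to 3 in the other, uncalled members, and the listed pairs. Members and lists were chosen with earlier results of these data known. A few genes covered by this rule stay in the counts but are not reported here. Alternatives were other scalings, filters, transcript choices, DESeq2 1.42.0, limma 3.58.1 (voom), each library left out, and, chosen after seeing the data, thinning to equal depth.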

Additional observations from a re-analysis of the deposited data

Results flagged for a closer look

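The spread among the 5 aortas was read for 160 genes of the text and for the 34 list means, and a value is given here where its gap to the nearest aorta was over 0.71 of the whole range. Chance gives such a gap in about 1 group in 20. It was found for 19 genes and 1 list, and replicate 5, the aorta of lowest depth, set 12 of the 20 gaps. Groups of 3 B1b libraries were not read this way.

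In aorta replicate 5 the highest values were those of Fabp4 (1985 CPM, against 399.7 to 757 in the other aortas), Scd1 (7398 CPM, against 1016 to 1760), Cd36 (568 CPM, against 156 to 268) and Slc2a4 (133 CPM, against 35.7 to 61.8), all genes of fat cells. The same aorta was highest for the globin gene Hbb-bs (4207 CPM, against 285 to 1243), the growth factor gene Vegfa (163 CPM, against 79.9 to 103) and its receptor gene Kdr (112 CPM, against 32.8 to 48.1). It was also highest for Pecam1 (715 CPM) and for the B cell genes Irf4 (19.6 CPM), Bank1 (10.6 CPM) and Fcrl5 (2.65 CPM). The mean log2 CPM of the cholesterol synthesis list was 4.845 there, against 4.28 to 4.42 in the other aortas.

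Aorta replicate 2 was highest for the B cell genes Cr2 (7.94 CPM), Mzb1 (4.41 CPM) and Pax5 (4.85 CPM), and replicate 1 for Cd3d (6.42 CPM). Replicate 4 was highest for Tlr8 (67.5 CPM) and Prdm1 (9.06 CPM) and lowest for H2-Ob (3.68 CPM) and Pfkm (58.2 CPM). B1b levels of the B cell genes named here were above those of every aorta.

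The difference between B1b cells and aortas was itself compared between genotypes for 15091 genes over the 16 libraries. By edgeR with Benjamini-Hochberg adjustment 3 genes passed, and 1676 had an unadjusted p under 0.05. Of those that can be named here, Raph1, an actin regulator of the lamellipodin family, differed by -2.72 on the log2 scale in wild type and by -1.36 in cre libraries (-1.303, wild type minus cre, edgeR adjusted p = 0.0178). Rgl1, an exchange factor for Ral GTPases, differed by -1.997 and -3.46 (1.519, edgeR adjusted p = 0.0178).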

How the results depend on the processing

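Over 12 alternatives the number of genes called between B1b cells and aortas ran from 8839 with at least 10 CPM in 3 libraries, where fewer genes were tested, to 11428 with no filter, and stayed within 1.5 times the reported 10878. Leaving out each library gave 10162 to 11076 calls, and 6073 to 6513 past 2-fold. Calls that returned in cre libraries ran from 7851 to 9948 under 9 alternatives and from 9174 to 9669 with a library left out. DESeq2 size factors moved the median of all genes by -0.0953 on the log2 scale and gave 4698 genes higher in B1b cells and 6056 higher in aortas. Of 3175 values of named genes under an alternative, 3115 kept direction and call, 44 lost the call, 14 gained it and 2 reversed. The reversals came with the transcript of lowest count: Gt(ROSA)26Sor at 1.404 and Mbp at -0.254. The skeletal muscle median of 0.14, over 7 genes, turned to -2.063 with no filter, -7.844 with at least 10 CPM, -2.424 with 16 libraries in 1 fit, -3.746 thinned, -1.55, -1.628 and -1.449 without B1b replicate 1, 2 or 3, and -0.145 without aorta replicate 4; it was at most 0.409, without aorta replicate 3. The cholesterol synthesis median turned to 0.03 with at least 10 CPM. The erythroid median of -2.54 was -7.04 without B1b replicate 1 and -1.42 without aorta replicate 5, or -4.41 with limma-voom. The heart muscle median of -8.53 was -9.15 without B1b replicate 3 and -9.19 thinned, the Notch and Wnt median of -6.20 was -6.93 with at least 10 CPM and -6.86 thinned, the T and NK median of -2.30 was -5.48 and -3.66 in the same order, and the adipocyte median of -8.97 was -8.34 with limma-voom. The cause of these moves was not tested. No paired analysis was possible because the wild-type groups share only the number 2 in their titles. Aorta replicate 5, with 1979824 counts, limits the lowest aortic values.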

Other observations

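Voltage-gated channels were read after Cacna1i and Cacna1e had been seen among the widest differences, so the choice of these families followed their values. Of 8 tested calcium channel pore genes, 3 were higher in B1b cells, 4 higher in aortas and 1, Cacna1h, was not called by edgeR, near the 35.4% and 40.4% called on each side among all tested genes. Besides Cacna1i and Cacna1e, the gene higher in B1b cells was Cacna1s, the pore known from skeletal muscle, at 30, 31.8 and 19 CPM in B1b libraries and 0 to 1.89 CPM in aortas. Cacna1c, the L-type pore of smooth and heart muscle, was on the other side with 1.32 to 3.1 CPM in B1b libraries and 68.9 to 121 CPM in aortas. Cacna1g, a T-type pore like Cacna1i, had no count in any B1b library and 11.7 to 28.8 CPM in aortas, at least 161-fold lower in B1b cells. The groups did not overlap for Cacna1s, Cacna1c or Cacna1g. Of 10 tested accessory subunit genes, 2 were higher in B1b cells, 6 higher in aortas and 2 not called. The shares over all tested genes were 35.4% and 40.4% on these sides.

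Of 7 tested sodium channel pore genes, 3 were higher in B1b cells, 3 higher in aortas and 1 not called, also near those shares. Scn4a, the pore known from skeletal muscle, stood at 117, 101 and 93.3 CPM in B1b libraries and at 0 to 2.12 CPM in aortas (log2 difference 7.05, SE 0.36).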
